A study of Mus musculus with 20 samples.

Results

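The genes described here are 10 mouse genes of the acyl-CoA thioesterase (Acot) and amino acid N-acyltransferase (Acnat) families, Acnat1, Acnat2, Acot1, Acot2, Acot3, Acot4, Acot7, Acot8, Acot12, and Acot13. They were found by symbol among the 55401 genes of the count table, and each symbol matched a single gene. The set was chosen by the measured liver difference of Acnat2, which was higher in Nsun6-knockout mice. The liver contrast of these genes between genotypes is therefore given below as a description, and its calls are not read as a test of them. RNA was sequenced from 5 organs (heart, kidney, liver, small intestine, and spleen) of wild-type (WT) and Nsun6-knockout (KO) mice, with 2 WT and 2 KO libraries in each organ and 20 libraries in all. Nsun6 encodes an RNA methyltransferase that places 5-methylcytosine. The KO strain lacked exons 3 and 4 of Nsun6 in every cell and was made with CRISPR/Cas9 in C57BL/6J fertilized eggs, and the mice were females of 8 weeks. No agent was given to either genotype. The comparison asks whether loss of Nsun6 changes the transcriptome of each organ. The study calls the replicates biological, and nothing in the sources used here says which organs came from the same mouse. The libraries held 15897446 to 44508197 counts (median 28513950). Values are given as CPM, read counts scaled to the size of each library with TMM factors, which also correct for composition. Comparisons of levels between genes use CPM per kb of exon.

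Acyl-CoA thioesterases split a fatty acyl-CoA into the free acid and coenzyme A, and so set the balance of the activated and the free fatty acid in the cytosol, the mitochondrion, and the peroxisome. The Acnat enzymes, relatives of the bile acid enzyme Baat, pass the acyl group to an amino acid such as taurine instead. Acnat1, Acnat2, and Acot1 to Acot4 belong to the alpha/beta-hydrolase type, whereas Acot7, Acot8, Acot12, and Acot13 belong to the hotdog-fold type. Several of the hydrolase-type genes are known targets of PPAR alpha, the nuclear receptor that switches on fatty acid breakdown in the liver during fasting.

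The hydrolase-type genes lie in 2 clusters of the GRCm38 genome. Acnat1 (chr4:49447105-49473912) and Acnat2 (chr4:49379840-49408151) are neighbours on the minus strand. Acot2 (chr12:83987861-83993873), Acot1 (chr12:84009490-84018371), Acot4 (chr12:84038379-84048601), and Acot3 (chr12:84052144-84060402) follow each other on the plus strand. Acot7 (chr4:152178134-152271855, plus strand), Acot8 (chr2:164792765-164804882, minus), Acot12 (chr13:91741512-91786148, plus), and Acot13 (chr13:24817948-24831540, minus) lie apart from these clusters. The coding sequences of Acnat1 and Acnat2 were 96.2% identical over their aligned bases, those of Acot1 and Acot2 95.5%, those of Acot1 and Acot3 84.0%, and those of Acot1 and Acot4 75.5%. With gaps counted, the values were 95.25%, 85.54%, 81.45%, and 74.18%. Acot1 and Acot13, of different types, reached 74.41% over aligned bases but 24.9% with gaps, so the aligned value alone does not show kinship. Reads from close copies can be hard to place, so the sequences that set the closest pairs apart are shown first. These are coding bases 792 to 881 of both Acnat genes, each within 1 exon, at chr4:49447699-49447788 in Acnat1 and chr4:49380496-49380585 in Acnat2 (minus strand, read 5′ to 3′). Capitals mark the 15 bases that differ between the genes.
Acnat1: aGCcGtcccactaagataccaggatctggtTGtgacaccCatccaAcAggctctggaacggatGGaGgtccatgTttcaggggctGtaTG
Acnat2: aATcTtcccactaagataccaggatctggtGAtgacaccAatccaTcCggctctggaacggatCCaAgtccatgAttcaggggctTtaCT
The start of the coding sequence, bases 1 to 90, shows the opposite case, with a single differing base. It lies at chr4:49451020-49451109 in Acnat1 and chr4:49383462-49383551 in Acnat2.
Acnat1: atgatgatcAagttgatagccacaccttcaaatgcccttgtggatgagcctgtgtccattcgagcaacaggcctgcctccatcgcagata
Acnat2: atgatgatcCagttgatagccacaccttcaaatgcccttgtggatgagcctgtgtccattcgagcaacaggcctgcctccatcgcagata
For Acot1, the cytosolic enzyme, and Acot2, its mitochondrial copy, the matching exon stretch is coding bases 797 to 886 at chr12:84016916-84017005 and 920 to 1009 at chr12:83992638-83992727 (plus strand), with 14 differing bases in capitals.
Acot1: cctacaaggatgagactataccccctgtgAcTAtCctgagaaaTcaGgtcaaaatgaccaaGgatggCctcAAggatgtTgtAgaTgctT
Acot2: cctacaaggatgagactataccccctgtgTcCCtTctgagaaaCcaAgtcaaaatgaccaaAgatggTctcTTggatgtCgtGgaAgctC

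Of all 100-base windows of the exons of Acnat2, 14.8% occurred without a mismatch in Acnat1, and 16.6% of those of Acnat1 occurred in Acnat2. For Acot1, 21.9% of windows occurred in another gene, mostly in Acot2. No window of Acot7 or Acot13 occurred elsewhere. Reads that fall wholly in shared windows cannot be assigned to a gene, so levels within these pairs carry that uncertainty. Exons of Acot8 share 246 bases (12.3% of its exon bases) with Snx21 on the opposite strand. Exons of Acot3 and Acot4 overlap the opposite-strand gene 4732463B04Rik. The stored counting command sets no strand option, so reads of such partners cannot be told apart.

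Nsun6 itself had 9.82 and 6.19 CPM in WT small intestine and 9.68 and 5.24 CPM in its KO libraries. WT liver had 7.23 and 4.83 CPM and KO liver 4.03 and 4.56 CPM. As a share of the WT mean, the KO mean was lowest in the kidney (64.1%), followed by liver (71.2%), heart (84.1%), small intestine (93.2%), and spleen (102.2%). Its levels were 5.44 and 5.84 against 3.91 and 3.32 CPM in the kidney, 6.07 and 4.36 against 4.03 and 6.64 CPM in the spleen, and 7.03 and 6.65 against 5.997 and 5.50 CPM in the heart. These counts take in all exons of the gene and therefore do not test the deletion of exons 3 and 4.

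The organ labels were set against lists of defining markers. The 14 hepatocyte markers summed to between 208398 and 410304 CPM in the liver, led by Alb, the 8 kidney markers to between 25568.5 and 43409 CPM in the kidney, led by Kap, and the 8 heart markers to between 59227 and 87204 CPM in the heart, led by Myl2. The 8 small intestine markers summed to between 13872 and 24839 CPM in their organ. The 8 spleen markers, led by Ptprc, summed to between 3046 and 3809 CPM in the spleen. Some libraries stood apart. In the small intestine, the 8 markers of its proximal part (Lct, Fabp1, and others) summed to 247 and 301 CPM in replicate 1 of WT and KO, and to 13677 and 14492 CPM in replicate 2. The 6 distal markers, led by Fabp6, ran the other way, with 10558 and 11565 CPM in replicate 1 and 311 and 305 CPM in replicate 2. The small intestine KO replicate 1 also had 415 CPM of heart markers, against 9.27, 19.8, and 28.8 CPM in the other 3 libraries. In the spleen, the hepatocyte markers summed to 4027 CPM in WT replicate 2, with Alb at 2685 CPM, against 123, 288, and 324 CPM in WT replicate 1 and the KO libraries. Kidney markers summed to 47.7 CPM in spleen KO replicate 1, with Kap at 33.9 CPM, against 2.40 to 2.89 CPM in the other spleen libraries, and their part in the low counts of members there was not tested. Spleen markers summed to 490.01 CPM in small intestine WT replicate 1, against 81.8 to 175 CPM in the other libraries of that organ. Adipose markers summed to 340.3 CPM in heart WT replicate 2, against 58.1 to 113.8 CPM in the other heart libraries.

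Each organ had its own mixture of the 10 genes (the plot of CPM in each library). Acot13, a small hotdog-fold thioesterase that is associated with mitochondria, had the highest mean CPM per kb of the 10 genes in all 5 organs. This rank depends on the exon length, 744 bases for Acot13 and 6674 for Acot4. By mean CPM, Acot13 (127.5) was below Acot12 (228.6), Acnat2 (178.9), and Acot4 (170.8) in the liver. In the small intestine it (56.1) was below Acot4 (103.5), and in the other organs it was highest by CPM too. The share of Acot13 in the summed CPM per kb of the 10 genes was 94.3% (heart), 68.2% (kidney), 60.8% (spleen), 49.2% (small intestine), and 37.6% (liver). In the liver, over both genotypes, Acnat2 came next with 22.5%, followed by Acot12 with 15.3%. In the WT libraries alone this order was reversed, with 69.3 and 83.9 CPM per kb for Acot12 and 48.1 and 50.3 CPM per kb for Acnat2. In the kidney Acnat2 and Acot12 came next with 9.55% and 6.45%. In the heart the next genes were Acot7 with 2.91% and Acot2 with 1.89%. Bulk RNA does not tell fewer cells of a type from less RNA per cell, here or below.

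**Figure D1:**
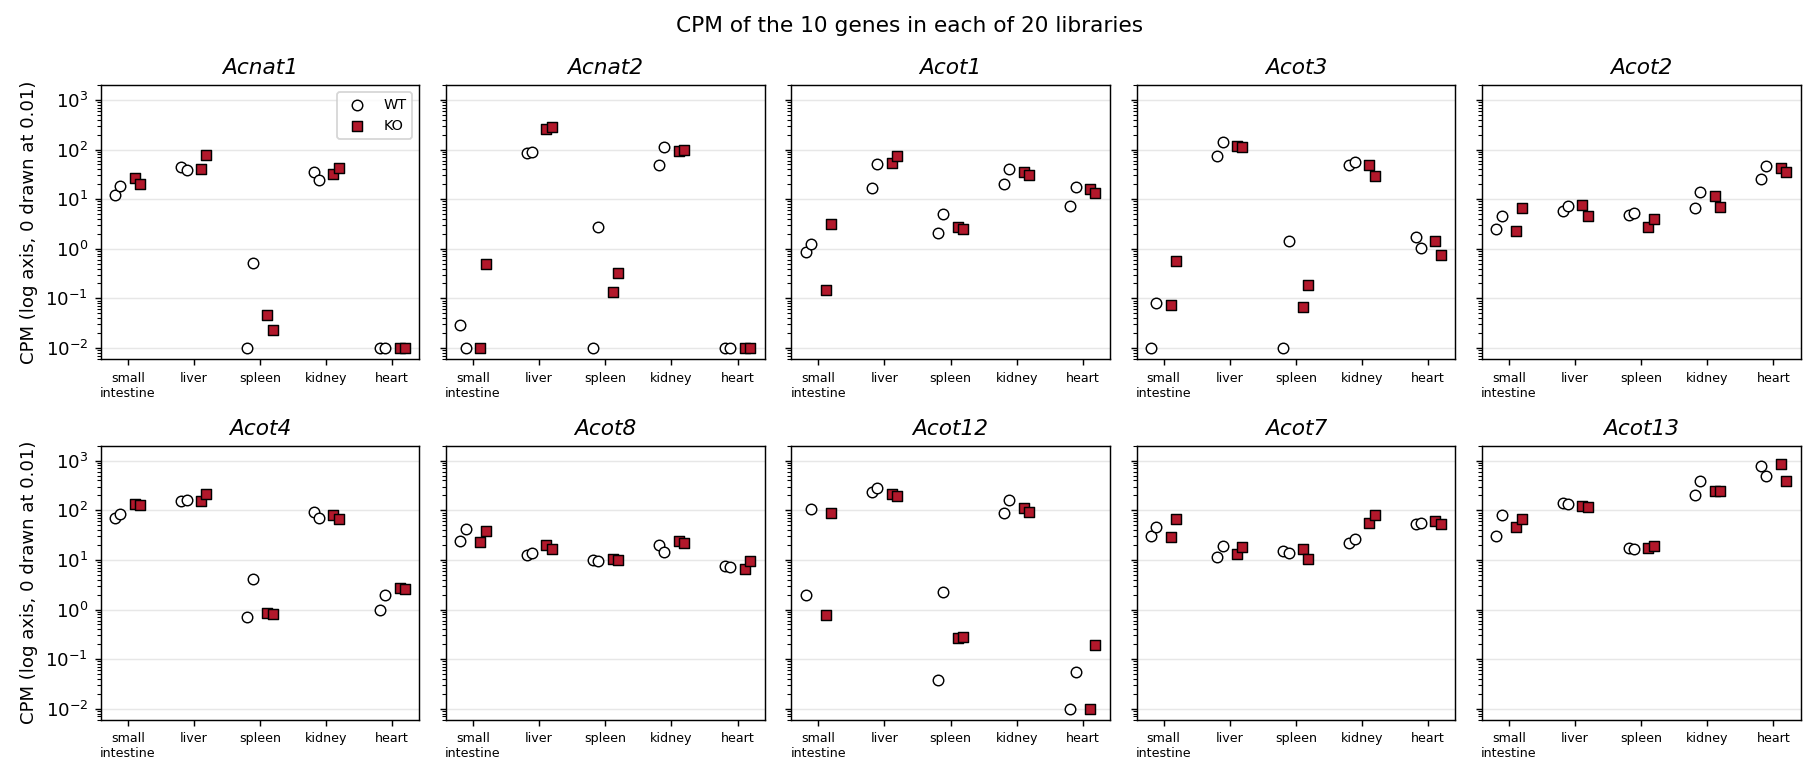
CPM (log axis, values of 0 drawn at 0.01) of the 10 genes in all 20 libraries, with WT as open circles and KO as red squares. Acnat2 in the liver sits at 83.8 and 87.7 CPM in WT and at 259.6 and 284.4 CPM in KO, and spleen WT replicate 2 stands above the other spleen libraries for Acnat1, Acnat2, Acot3, Acot4, and Acot12.

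**Figure D2:**
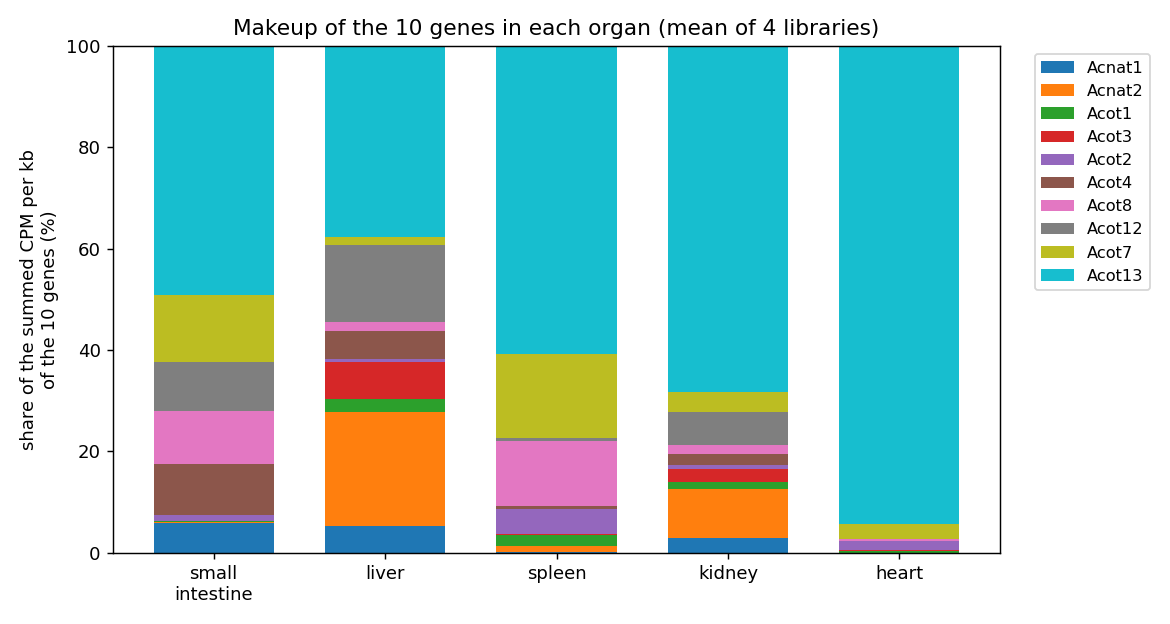
Stacked bars give the share of each gene in the summed mean CPM per kb of the 10 genes in each organ (4 libraries each). Acot13 takes 37.6% of the bar in the liver and 94.3% in the heart.

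Organ differences were tested with edgeR in 1 fit of all 20 libraries, which 10 of 10 genes entered. Libraries of different organs were taken as independent, since the labels do not tie them to mice, and the p-values rest on that assumption. A difference was called at a Benjamini-Hochberg adjusted p under 0.1 over all genes and a fold above 2. Of the 100 comparisons of a gene between 2 organs, 69 were called. Over all 23159 genes tested and all 10 pairs, 46.8% were called. The pair with fewest member calls was liver and kidney, with 3 of 10 genes (34.7% of all genes). The small intestine parted from the kidney for 5 genes (45.7%), from the spleen for 6 (49.5%), from the liver for 7 (46.3%), and from the heart for 8 (53.5%). The liver parted from the spleen for 7 genes (52.2%) and from the heart for 9 (44.5%). Spleen and kidney differed for 9 genes (50.5%), spleen and heart for 7 (52.6%), and kidney and heart for 8 (38%). Acnat1, Acnat2, Acot3, and Acot12 entered the fit through the organs where they were high, so the count for the 10 genes is a description only.

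Acnat2 was high in the liver and the kidney and low in the other organs. It had 83.8, 87.7, 259.6, and 284.4 CPM in the liver and 49.6, 113.7, 95.1, and 99.3 CPM in the kidney, in the order WT replicates 1 and 2 and KO replicates 1 and 2. The ranges of these organs overlapped, and the log2 difference of 0.78 (SE 0.83) was not called (edgeR, adjusted p = 0.53). With the WT libraries only it was 0.04. In the small intestine Acnat2 had between 0 and 0.495 CPM, a fitted log2 difference of -11.07 (SE 1.40) from the liver, given as a description since the gene entered the fit through other organs. No read of Acnat2 was counted in the 4 heart libraries. Against a floor of 3 counts over those libraries, its level in the liver with both genotypes pooled (183.3 CPM) was at least 6599-fold higher. For WT liver alone, at 83.8 and 87.7 CPM, the bound would be lower. The floor takes counts as independent, and this bound would be lower if both mates of a pair were counted. In the spleen Acnat2 had 0, 2.77, 0.136, and 0.330 CPM, so that its level there rested on WT replicate 2. The calls of Acnat1 and Acnat2 between spleen and heart were lost without that library.

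Acnat1, which joins fatty acids to taurine in the peroxisome, differed from its neighbour in the intestine. It had 12.2, 18.5, 26.4, and 20.004 CPM in the small intestine, 44.4, 38.0, 41.3, and 75.9 CPM in the liver, and 34.9, 23.8, 31.7, and 42.9 CPM in the kidney. The level in the small intestine was below that in the liver by a log2 difference of -1.38 (SE 0.54, edgeR, adjusted p = 0.050), a call that was lost in the smaller fits without replicate 1 of the small intestine (-1.35, adjusted p = 0.14) and without replicate 2 (-1.42, adjusted p = 0.12), where the difference itself was nearly the same. Liver and kidney did not pass the test for Acnat1 (log2 difference 0.57, SE 0.53, edgeR, adjusted p = 0.46). No read of Acnat1 was counted in the heart, and its liver level was at least 1862-fold above the floor of 3 counts, with the same limit on pairs. Per length, the level of Acnat2 was 2.30 and 2.81 times that of Acnat1 in WT liver, 7.66 and 4.57 times in KO liver, and between 1.73 and 5.83 times in the kidney.

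Acot3 and Acot4, peroxisomal thioesterases of the chromosome 12 cluster, parted in the intestine as the Acnat genes did. Acot3, which acts on medium- and long-chain acyl-CoAs, had 72.9, 141.8, 118.1, and 114.8 CPM in the liver but between 0 and 0.577 CPM in the small intestine, a fitted log2 difference of -9.98 (SE 1.11), again as a description. Acot4, which splits succinyl-CoA, had 69.4, 83.2, 135.3, and 126.1 CPM in the small intestine, within reach of the 150.3, 164.0, 154.7, and 214.3 CPM of the liver. The small intestine and the liver did not differ by the call rule for Acot4, whose log2 difference was -0.77 (SE 0.36, edgeR, adjusted p = 0.091, fold under 2). Acot4 was higher in the liver than in the kidney by 1.14 on the log2 scale (SE 0.36, edgeR, adjusted p = 0.023), a call that was not kept with the WT libraries alone (log2 difference 0.91). The heart had between 0.995 and 2.77 CPM of Acot4, 6.41 lower than the liver on the log2 scale (SE 0.46, edgeR, adjusted p = 5.88e-08).

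Acot1 and Acot2 were highest in different organs although their aligned coding bases are nearly the same. Acot1, a cytosolic long-chain thioesterase, had 16.8, 50.4, 54.2, and 72.5 CPM in the liver, between 20.6 and 39.7 CPM in the kidney, and between 7.34 and 17.6 CPM in the heart. Its level was between 2.11 and 5.04 CPM in the spleen and between 0.145 and 3.13 CPM in the small intestine. Neighbours in this order did not pass the test for liver and kidney (log2 difference 0.56, SE 0.58, edgeR, adjusted p = 0.52), kidney and heart (1.22, SE 0.59, adjusted p = 0.12), and small intestine and spleen (-1.22, SE 0.62, adjusted p = 0.11). For Acot1 the last of these was -3.12 and called without replicate 2 of the small intestine (edgeR, adjusted p = 0.0018), and -0.63 without replicate 1. Acot2, which acts in the mitochondrial matrix, had 25.6, 46.1, 42.4, and 34.9 CPM in the heart and between 6.65 and 13.7 CPM in the kidney, a log2 difference of -1.93 for kidney against heart (SE 0.39, edgeR, adjusted p = 0.00099). In the other organs Acot2 stayed between 2.32 and 7.57 CPM, and its 3 pairs among liver, spleen, and small intestine were not called with all libraries. Without replicate 2 of the small intestine, the difference of small intestine and liver was called for Acot2 (log2 difference -1.35, edgeR, adjusted p = 0.020, against -0.65 with all libraries).

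Acot12, the cytosolic acetyl-CoA hydrolase, had 228.2, 276.4, 212.6, and 197.4 CPM in the liver and 89.3, 164.1, 111.5, and 91.1 CPM in the kidney (log2 difference 1.01, SE 1.15, edgeR, adjusted p = 0.56). In the small intestine it split by replicate number and not by genotype, with 1.95 and 0.762 CPM in WT and KO replicate 1 and 106.0 and 88.3 CPM in WT and KO replicate 2. The mean of replicate 2 was 71.7 times that of replicate 1. The proximal markers divided the libraries in the same way, and their part in this difference was not tested. As a description, the fitted log2 difference of Acot12 between small intestine and spleen was 6.45 (SE 1.49). It was 7.44 without replicate 1 of the small intestine, 1.09 without replicate 2, and 8.81 without spleen WT replicate 2. Acot1 (4.29 times), Acot13 (1.91 times), Acot7 (1.88 times), Acot8 (1.68 times), and Acot2 (2.35 times) were also higher in replicate 2 of the small intestine, whereas Acot4 (1.02 times) and Acnat1 (0.996 times) were level. Acnat2 and Acot3 had too few counts in replicate 1 for a ratio. Without replicate 2 of the small intestine the log2 differences from the liver were 0.98 for Acot7 and 0.67 for Acot8, and without replicate 1 that of Acot13 was -0.79, none of them called. Without replicate 2, Acot12 was at -7.51 against the liver and -6.50 against the kidney, and with all libraries at -2.21 and -1.21. It was called only without replicate 2, which is a description, since the gene entered the fit through other organs.

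**Figure D3:**
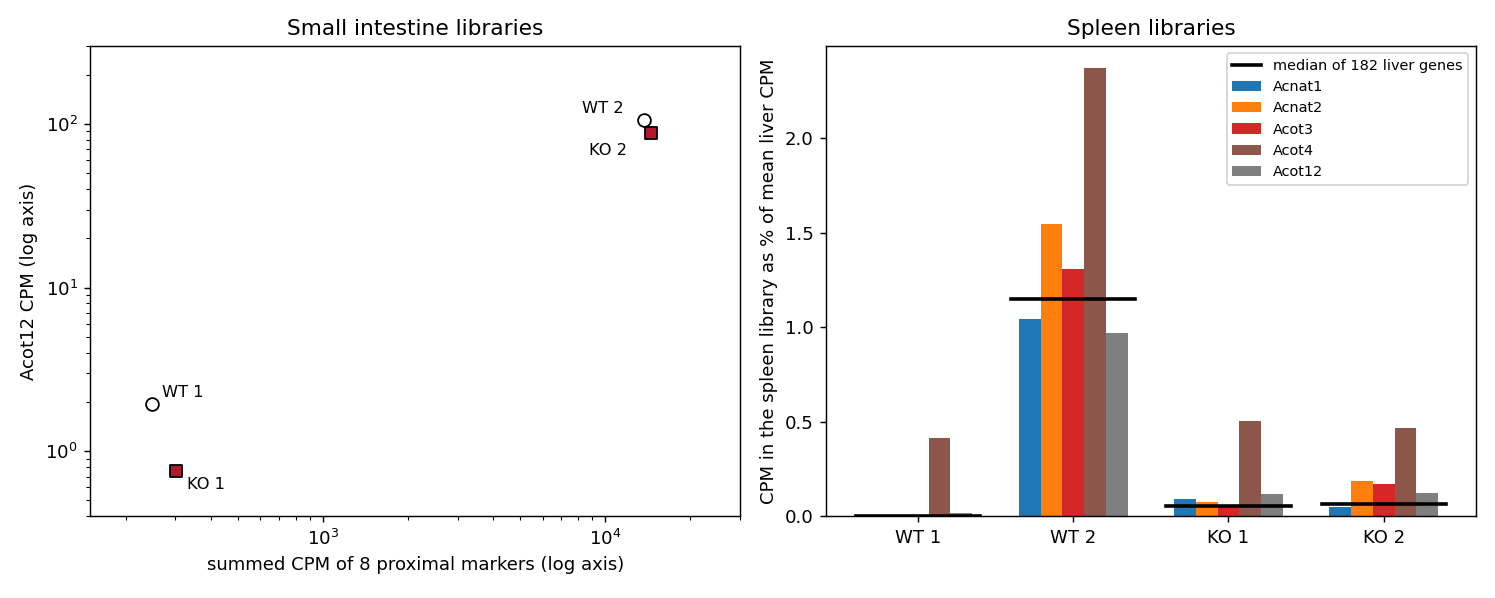
Left, Acot12 CPM against the summed CPM of 8 proximal markers in the 4 small intestine libraries (both axes log). Replicate 2 of both genotypes lies above replicate 1 on both axes. Right, CPM in each spleen library as a percent of the mean liver CPM for 5 genes (bars) and the median of 182 liver genes (black lines). That median is 1.15% in WT replicate 2 and at most 0.0667% in the KO libraries. The 182 genes were chosen to be under 0.1 CPM in WT replicate 1, so its value near 0 is set by the choice.

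Acot7, Acot8, and Acot13 were found in all organs. Acot13 had 766, 500.1, 862, and 390.1 CPM in the heart, 202.6, 396, 248, and 243.5 CPM in the kidney, 139.9, 132.9, 121.5, and 115.6 CPM in the liver, between 30.6 and 79.3 CPM in the small intestine, and between 16.9 and 18.8 CPM in the spleen. Each of the 10 organ pairs was called for Acot13, from a log2 difference of -1.09 for liver against kidney (SE 0.33, edgeR, adjusted p = 0.016) to -5.15 for spleen against heart (SE 0.38, edgeR, adjusted p = 1.01e-07). With the WT libraries only, liver against kidney (-1.17) and kidney against heart (-1.04) were not called. Acot7, a cytosolic long-chain thioesterase best known from the brain, had between 52.5 and 61.2 CPM in the heart, between 28.7 and 66.4 CPM in the small intestine, between 11.6 and 18.6 CPM in the liver, and between 10.5 and 16.3 CPM in the spleen. With all libraries, heart, kidney, and small intestine did not differ by the call rule for Acot7, nor did liver and spleen (log2 difference 0.15, SE 0.27, edgeR, adjusted p = 0.69). With the WT libraries only, Acot7 was called between kidney and heart (-1.13, against -0.46 with all libraries) and was not called between the kidney and the liver or the spleen. Acot8, a peroxisomal thioesterase of broad specificity, varied least among the genes with reads in all libraries, from 6.52 CPM in a heart library to 42.0 CPM in a small intestine library, and 4 of its 10 pairs were called. Its small intestine level exceeded that of the heart by 2.05 on the log2 scale (SE 0.24, edgeR, adjusted p = 6.22e-06).

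The genes whose log2 CPM ran most alike over the 20 libraries differed from member to member, and the correlations below are descriptions over libraries of shared organs. Acnat2 ran close to Aldh8a1 (Pearson r 0.992), Hgd (0.986), Cyp4a14 (0.982), and BC024386 (0.981). Acnat1 ran closest to Slc10a5 (0.990), Iyd (0.989), and Dio1 (0.989). Acot13 ran closest to S100a1 (0.995), Sod2 (0.991), and Ndufb4 (0.989), and Acot12 to Aadac (0.982), Fbp1 (0.980), and Slc27a2 (0.974). Acot3 ran closest to Fah (0.979), Sall1 (0.975), and Slc16a12 (0.966), and Acot4 to 0610005C13Rik (0.989), Ngef (0.984), and Camk2n1 (0.982). Acot8 ran closest to Chka (0.966), Serinc2 (0.942), and Cdhr5 (0.940). Acot1 ran closest to Wdr18 (0.956), Ninj1 (0.951), and Rcbtb2 (0.945), and Acot2 to Dipk2b (0.945), Lamc1 (0.944), and Naalad2 (0.939). The values of Acot7 were lower, with Gm2606 (0.896), Vps4a (0.890), and Laptm4b (0.888). Among the 10 genes, Acnat1 and Acot4 had an r of 0.978, Acnat2 and Acot3 of 0.923, and Acnat1 and Acnat2 of 0.718. For Acot1 and Acot2, a pair with near-identical aligned coding bases, r was 0.493.

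In the liver, Acnat2 was the member that stood apart between genotypes. The WT libraries held 2121 and 1654 of its reads and the KO libraries 5352 and 7729, or 83.8 and 87.7 against 259.6 and 284.4 CPM, and both KO libraries were above both WT libraries. The fitted difference was 3.16-fold, a log2 fold change of 1.66 (SE 0.19, n = 2 per genotype), and Acnat2 was 1 of 8 genes called among 15729 tested (0.0509%). This gene and this contrast chose the set, so nothing is read from the count. With 1 library left out, from 2 to 205 genes were called. Acnat1 had 44.4 and 38.0 CPM in WT and 41.3 and 75.9 CPM in KO, with overlapping genotypes and a log2 fold change of 0.50 (SE 0.27). The next largest value belonged to Acot1, with 16.8 and 50.4 CPM in WT and 54.2 and 72.5 CPM in KO and a log2 fold change of 0.91 (SE 0.53). Acot1 in WT replicate 1 lay far below WT replicate 2, and its log2 fold change was 0.30 when WT replicate 1 was left out and 1.93 when WT replicate 2 was.

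The other 7 members had log2 fold changes between -0.30 and 0.47 in the liver. Acot8 was at 12.4 and 13.5 CPM in WT and 19.5 and 16.4 CPM in KO (0.47, SE 0.23). Acot12 was at 228.2 and 276.4 CPM in WT and 212.6 and 197.4 CPM in KO (-0.30, SE 0.20), and Acot13 was at 139.9 and 132.9 CPM in WT and 121.5 and 115.6 CPM in KO (-0.20, SE 0.18). For 5 of the 10 members (Acnat2, Acot1, and Acot8 higher, Acot12 and Acot13 lower) the genotypes did not overlap. Among all genes tested in the liver, 33.3% did not overlap in 1 direction or the other. Over the 10 members the median was 0.17, and over all genes 0.0048.

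Other values of the liver libraries are given beside this difference. The 14 hepatocyte markers summed to 208398 and 410304 CPM in WT and 362088 and 357969 CPM in KO. Heart markers summed to 27.3 and 4.67 CPM in WT and 1.55 and 1.40 CPM in KO. Of 15 genes known to be higher in female than in male mouse liver, 5 were called and higher in KO (0.0509% of all genes were called in either direction), namely A1bg (log2 fold change 3.70, SE 0.22), Sult3a2 (4.40, SE 0.35), Sult3a1 (2.40, SE 0.22), Cyp3a41a (1.87, SE 0.22), and Cux2 (1.59, SE 0.21). The median of all 15 was 0.71. This list was written with earlier results of these data known. The 11 male-biased genes included 10 tested, with no call and a median of 0.20. The part of these patterns in the difference of Acnat2 was not tested.

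RefSeq holds 2 start sites of Acnat2, and the 250 bases before the farther upstream of them (RefSeq, GRCm38.p6, chr4:49408152-49408401, minus strand, read 5′ to 3′) are shown because Acnat2 carries the genotype difference.
Acnat2 upstream: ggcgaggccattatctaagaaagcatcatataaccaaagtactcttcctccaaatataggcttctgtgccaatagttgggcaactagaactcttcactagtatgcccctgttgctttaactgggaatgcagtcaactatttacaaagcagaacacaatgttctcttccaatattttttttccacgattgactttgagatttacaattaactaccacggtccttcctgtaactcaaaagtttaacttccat
On both strands this window, and likewise that before the other start (chr4:49405759-49406008), held no match to TTCNNNGAA, the GAS element bound by STAT factors, to the DR1 element bound by PPAR alpha (a pair of AGGTCA half-sites with 1 base between them), or to the half-site AGGTCA alone, which DR1 contains. Among 32817 windows of this length, 7.01% held the GAS element, 0.0335% DR1, and 14% the half-site. RefSeq windows were found for 9 of the 10 genes, and the half-site occurred in those of Acot4 and Acot12. These are matches of letters only.

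Outside the liver, 0 of the members were called in any organ (the plot of knockout effects). All 10 genes entered the edgeR fit for the kidney, 8 entered those for small intestine and for spleen, and 7 that for the heart. Of all genes tested, 0.223% were called in the spleen and 0% in each of the other 3 organs. DESeq2 also called 0 members in these 4 organs. At an unadjusted p under 0.05, 1 member passed in the small intestine and 1 in the kidney, where 2.39% and 0.638% of all genes did. The spleen and the heart had 0 such members, beside 5.14% and 0.703% of all genes. Genotypes did not overlap for 3 members each in spleen (Acot2, Acot8, and Acot13, 31.5% of all genes) and kidney (Acot3, Acot7, and Acot8, 21% of all genes), and for 1 in the heart (Acot4, 17.2%).

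**Figure D4:**
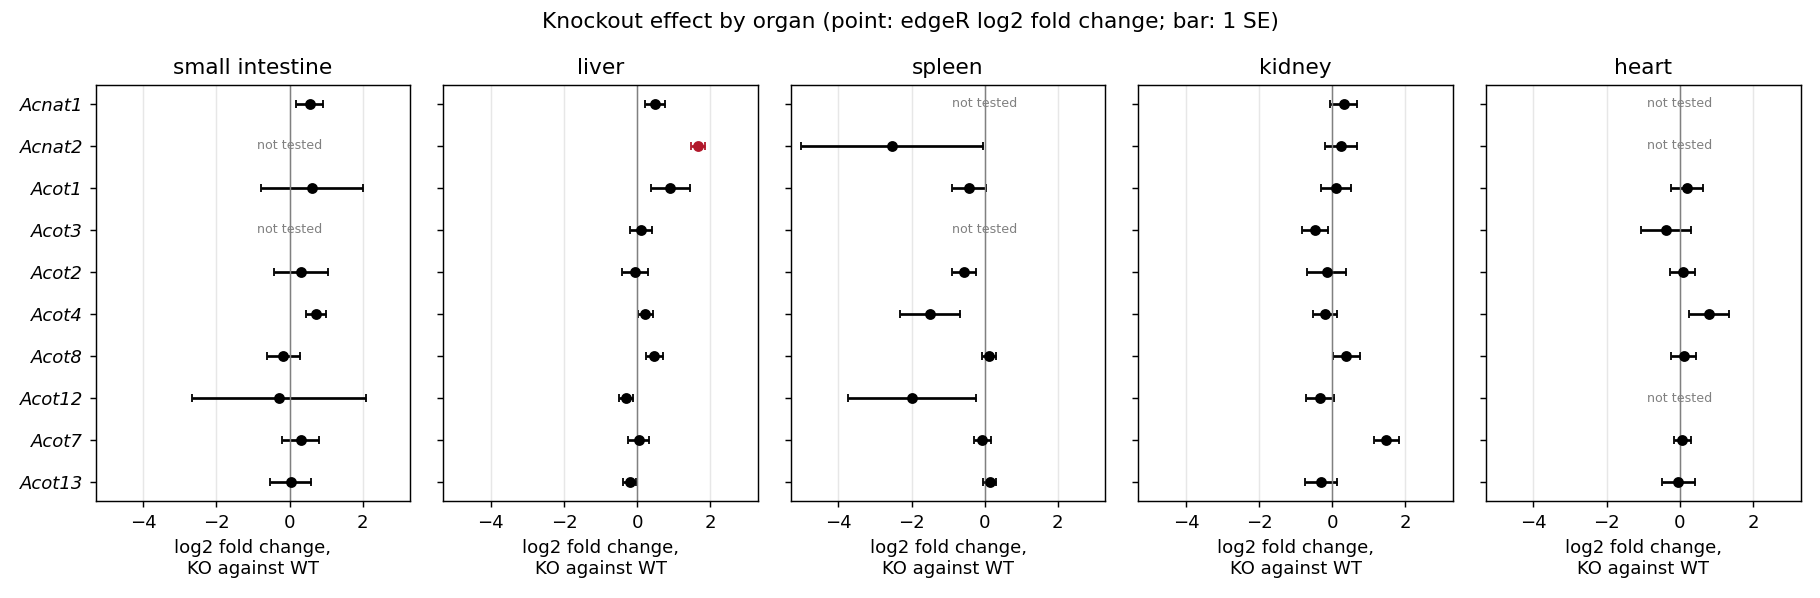
Log2 fold change of KO against WT for each gene in each organ, with bars of 1 SE (edgeR, 2 libraries per genotype). Red marks Acnat2 in the liver at 1.66, the value that chose the set. Wide bars in the small intestine (Acot12) and the spleen (Acnat2, Acot12) belong to genes whose replicates differed.

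Among member values outside the liver, Acot7 in the kidney had the smallest p. Acot7 had 21.4 and 26.4 CPM in WT and 55.2 and 80.3 CPM in KO, and the genotypes did not overlap. Its log2 fold change was 1.47 (SE 0.34, edgeR, unadjusted p = 0.0062), the 4th smallest p among 17550 genes, but it did not pass the correction over all genes (adjusted p = 1.0). Over the other fits the log2 fold change ran from 1.22 to 1.72 and the adjusted p from 0.0040 to 1. It was called without WT replicate 1, where 16.1% of all genes were called, and without WT replicate 2, where 2.37% were. Each of these fits has 1 WT library, which is assumed to vary like the KO pair. Adipose markers summed to 48.2 and 67.1 CPM in WT and 37.4 and 0.927 CPM in KO kidney, and their part was not tested. The knockout effect on Acot7 in the spleen minus that in the kidney was -1.60 on the log2 scale (SE 0.55, edgeR, adjusted p = 1.0), which did not pass, so an effect particular to the kidney was not shown.

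In the small intestine, Acot4 had 69.4 and 83.2 CPM in WT and 135.3 and 126.1 CPM in KO, with no overlap and a log2 fold change of 0.74 (SE 0.27, edgeR, unadjusted p = 0.049, adjusted p = 1.0). Within replicate 1 the KO library was at 135.3 against 69.4 CPM, and within replicate 2 at 126.1 against 83.2 CPM. Acnat1 was higher in both KO libraries too, with a log2 fold change of 0.55 (SE 0.37, edgeR, adjusted p = 1.0) and a range of 0.28 to 0.87 when a library was left out. That of Acot4 ran from 0.61 to 0.86. Genotypes did not overlap for these 2 of the 8 members tested, and for 25.1% of all genes. Acot4 in the heart had 0.995 and 1.95 CPM in WT and 2.77 and 2.56 CPM in KO, a log2 fold change of 0.81 (SE 0.54, edgeR, adjusted p = 1.0). In the kidney its log2 fold change was -0.20 (SE 0.32).

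In the spleen, negative values of several members rested on WT replicate 2. Acot4 had 0.709 and 4.05 CPM in WT and 0.864 and 0.8003 CPM in KO (log2 fold change -1.49, SE 0.81), and Acot12 had 0.0383 and 2.22 CPM in WT and 0.273 and 0.282 CPM in KO (-1.98, SE 1.75). For 182 genes above 100 CPM in the liver and under 0.1 CPM in spleen WT replicate 1, the median level in WT replicate 2 was 1.15% of that in the liver, against 0.0546% and 0.0667% in the KO libraries. The members reached 1.05% (Acnat1), 1.55% (Acnat2), 1.31% (Acot3), 2.37% (Acot4), and 0.971% (Acot12) of their liver level in this library. Without it, the log2 fold change of Acot4 was 0.30 and not called. The other WT library held 0 reads of Acnat2 and 2 of Acot12, against 6 and 14 and against 12 and 12 in the KO libraries. Their folds without WT replicate 2 are therefore no measure of size. The value of Acot2 did not rest on WT replicate 2, with 4.79 and 5.30 CPM in WT and 2.71 and 3.93 CPM in KO. Its log2 fold change was -0.56 (SE 0.32), which was not called, and -0.46 without WT replicate 2. Acot8, Acot13, and Acot7 did not share the pattern of Acot4 and Acot12. Acot8 was at 9.83 and 9.58 CPM in WT and 10.5 and 10.03 CPM in KO, Acot13 at 17.2 and 16.9 against 17.7 and 18.8 CPM, and Acot7 had a log2 fold change of -0.06 (SE 0.24).

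An effect shared by the 4 organs other than the liver was tested in 16 libraries. Of the 10 members, 0 were called, as were 0% of all 22649 genes (edgeR), and 0 members had an unadjusted p under 0.05, where 1.78% of all genes did. DESeq2 called 0 members as well. The values farthest from 0 were -0.57 for Acot12 (SE 0.93), -0.44 for Acot3 (SE 0.72), and 0.44 for Acot7 (SE 0.23), each with an edgeR adjusted p = 1.0. Without the spleen they were -0.12, 0.13, and 0.63, without the small intestine -0.72, -0.90, and 0.49, and that of Acot7 was 0.086 without the kidney. Differences of the knockout effect between 2 of these organs were tested for 6 pairs. Of the 60 comparisons of members, 0 passed an adjusted p under 0.1, beside 0% of all genes in each pair (edgeR, and DESeq2 also called 0). The 60 include those of Acnat1 and Acnat2 with the heart, which held no reads of either gene, so these could not pass. An unadjusted p under 0.05 was found for 7 of the 60, beside 2.96% of the comparisons over all genes. Of the 7, 2 were those of Acnat1 and Acot3 between small intestine and spleen, where these genes had too few counts to be tested within the spleen, and all comparisons share organs, so nothing is read from the count. The smallest was that of Acot4 between the small intestine and the spleen (log2 difference 2.27, SE 0.75, edgeR, unadjusted p = 0.0089, adjusted p = 0.87). It was 0.57 (SE 0.51) without spleen WT replicate 2, in which Acot4 was high.

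Genes around the members in the pathway were followed as 4 lists, written with earlier results known. Of the lists of other thioesterases (12 genes), acyl-CoA synthetases (20), PPAR alpha targets and fatty acid oxidation (30), and peroxisomal acyl-CoA handling (16), 0 genes were called in any organ with edgeR. At an unadjusted p under 0.05 in the liver, 2 synthetases were higher and 1 lower, and 1 peroxisomal gene was higher and 1 lower, where 4.7% of all genes passed. DESeq2 called 0 as well. In the liver, 23 of 29 tested genes of the PPAR alpha list had a log2 fold change above 0, as did 50.6% of all genes. Of the 14 hepatocyte markers, 11 were above 0 as well. The median was 0.23 for the PPAR alpha list and 0.22 for the hepatocyte markers, so the lean was not particular to that list. The largest values of the PPAR alpha list were those of Fgf21, a liver hormone (0.89, SE 0.58), and Cyp4a10, a fatty acid omega-hydroxylase (0.76, SE 0.40). Cyp4a10 had 448 and 1040.1 CPM in WT and 1033 and 1508 CPM in KO, with overlapping genotypes. Synthetases form acyl-CoA, the substrate of the members. Their largest values were those of Acsm2 (1.11, SE 0.47) at 1.30 to 4.75 CPM and Acss3, a mitochondrial short-chain enzyme (0.77, SE 0.23), with 28.9 and 24.7 CPM in WT and 36.2 and 55.8 CPM in KO. Their median was -0.02. Among peroxisomal genes, Hacl1, which shortens branched and hydroxylated fatty acids, had 30.9 and 20.5 CPM in WT and 41.7 and 44.1 CPM in KO (0.74, SE 0.23). Nudt19, which cleaves coenzyme A, was at 119.7 and 101.4 CPM in WT and 78.7 and 78.3 CPM in KO (-0.49, SE 0.18). The median of the peroxisomal list was 0.04.

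The other thioesterases filled in the organ pattern. Baat, which conjugates bile acids and is a relative of the Acnat enzymes, had between 531 and 640 CPM in the liver and at most 22.6 CPM elsewhere. The identity of Baat with Acnat1 was 64.1% over the aligned coding bases and 62.45% with gaps counted. The log2 fold change of Baat in the liver was 0.18 (SE 0.21). Acot6, of the chromosome 12 cluster, was highest in the kidney, with a mean of 10.9 CPM and an SD of 1.13 (n = 4), and Acot5 did not exceed 0.639 CPM in any library. In the liver Acot6 had 2.05 and 6.05 CPM in WT and 2.28 and 1.58 CPM in KO (log2 fold change -1.07, SE 0.56), and Them6 had a log2 fold change of 0.47 (SE 0.44). Acot9, a mitochondrial hotdog thioesterase, had between 89.3 and 156.6 CPM in the small intestine and between 10.7 and 13.4 CPM in the liver. Ppt1, a lysosomal thioesterase, had reads in all libraries, from 33.8 to 150.3 CPM, whereas Acot10, Olah, and Them5 did not exceed 4 counts in any library.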

How the data were processed

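RNA was sequenced from 20 libraries, with 2 WT and 2 KO libraries in each of 5 organs. The authors trimmed reads with cutadapt, aligned them with HISAT2 (version 2.1.0) and counted them per gene with featureCounts (version 2.0.1), and deposited raw read counts with a gene length. The processing notes name mm10, and the counting command in the file header names an Ensembl GRCm38 annotation and no strand or pair option, whereas the methods describe reverse-stranded counting of proper pairs. Levels are CPM with TMM factors. Tests used the quasi-likelihood test of edgeR (version 4.0.16, R 4.3.3) after filterByExpr, within each organ for genotype, in all 20 libraries for organs and for differences of effects, and in 16 libraries for the shared effect. A call needed an adjusted p (Benjamini-Hochberg over all genes) under 0.1 and a fold over 2, or the adjusted p alone for differences of effects. P-values measure the spread between these libraries only, 2 per group. DESeq2 (1.42.0), limma (3.58.1) on log2(TPM + 0.1), other filters and scalings, left-out libraries and a replicate block were alternatives. The scripts were tested on simulated data.

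The members and all gene lists were chosen with earlier results of these data known. The text names all members, the 2 tested genes of each pathway list with the largest absolute liver fold change and any called, other thioesterases by level, marker genes, and for each member the 3 genes (5 for Acnat2) with the highest r over the libraries. An item that this rule names is not reported here. Sequence comparisons used GENCODE and RefSeq records of GRCm38. The sequences are reference sequences and not read from the libraries. Floors of 3 counts cover counting error only. Of counts from 10 to 50, 54.9% to 59.8% per library were even, so mates of a pair may have been counted apart, and 3 counts may come from fewer fragments.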

Additional observations from a re-analysis of the deposited data

Results flagged for a closer look

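In 48 groups of 4 libraries of a gene in an organ, the highest or lowest library was compared with the others by Dixon's ratio against its 95% critical value. Chance alone gives about 1 such group in 20. Spleen WT replicate 2 stood above the other spleen libraries for Acnat1 (0.522 CPM), Acnat2 (2.77 CPM), Acot3 (1.46 CPM), Acot4 (4.05 CPM), and Acot12 (2.22 CPM), and hepatocyte markers summed to 4027 CPM in that library. The part of these transcripts in the 5 values was not tested. Small intestine KO replicate 2 stood above the other libraries of its organ for Acnat2 (0.495 CPM) and Acot3 (0.577 CPM). Acnat1 in liver KO replicate 2 was at 75.9 CPM, with a ratio of 0.831. For Acot13 both KO libraries were below both WT libraries in the liver (log2 fold change -0.20) and above them in the spleen (0.14), and this difference between the organs was not tested.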

How the results depend on the processing

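With 2 libraries per genotype, calls depended on single libraries. The log2 fold change of Acnat2 in the liver ran from 1.48 to 1.71 over 12 settings, although its call was lost in some of them. In the liver, where the contrast chose the set and its calls are a description, 1 member (Acnat2) was called, but 0 with 1 fit of all 20 libraries and 0 with limma on log2(TPM + 0.1), and the count ran from 0 (without KO replicate 1 or KO replicate 2) to 2 (without WT replicate 2, Acnat2 and Acot1) when a library was left out. Such a fit leaves 1 library in a genotype, which is assumed to vary like the other pair. In the spleen that range was 0 to 4, with Acnat2, Acot3, Acot4, and Acot12 called without WT replicate 1, where 1.86% of all genes were. In the kidney it was 0 to 1 (Acot7), and for differences of the knockout effect 0 to 1 (Acot4 between small intestine and spleen without spleen WT replicate 1, 3.07, SE 0.48, edgeR adjusted p = 0.049, beside 0.0607% of all genes, and 0.57 without spleen WT replicate 2). Of 51 knockout fold changes, 29, all of them of members and none of them called with all libraries, turned sign under at least 1 alternative. With a library left out, the log2 fold change of those members ran in the small intestine from -2.91 to 1.56 for Acot1, with Acot2 from -0.70 to 0.90, Acot7 from -0.50 to 0.80, Acot8 from -0.63 to 0.27, Acot12 from -6.24 to 4.50, Acot13 from -0.51 to 0.86. Such a fit unbalances the replicate numbers, which part the proximal and distal markers, so these ranges also hold that difference. With the replicate block, which keeps the numbers balanced, the values were 0.18 (Acot2), 0.19 (Acot7), -0.16 (Acot8), -0.74 (Acot12), and 0.15 (Acot13). In the liver the log2 fold change with a library left out ran for Acot2 from -0.47 to 0.26, Acot3 from -0.31 to 0.69, Acot4 from -0.0088 to 0.42, Acot7 from -0.28 to 0.45. In the spleen it ran for Acnat2 from -3.55 to 6.48, Acot1 from -0.95 to 0.37, Acot4 from -2.27 to 0.30, Acot7 from -0.41 to 0.20, Acot12 from -2.98 to 2.84. The upper values of Acnat2 and Acot12 had 0 and 2 reads in the remaining WT library and are no measure of size. In the kidney it ran for Acnat2 from -0.23 to 0.95, Acot1 from -0.29 to 0.64, Acot2 from -0.60 to 0.46, Acot4 from -0.38 to 0.059, Acot12 from -0.70 to 0.16, Acot13 from -0.69 to 0.25. In the heart it ran for Acot1 from -0.26 to 0.97, Acot2 from -0.25 to 0.58, Acot3 from -0.84 to 0.076, Acot7 from -0.012 to 0.17, Acot8 from -0.19 to 0.36, Acot13 from -0.70 to 0.42. In the spleen Acnat2, Acot1, Acot4, and Acot12 were positive without WT replicate 2, for Acnat2 and Acot12 with the few WT reads given above. With limma the value was -0.24 for Acot1 in the small intestine, -0.11 for Acot7 in the liver, and -0.033 for Acot8 and -0.019 for Acot13 in the spleen, and with the replicate block it was -0.40 for Acot1 in the small intestine. Of 494 alternative values of these fold changes, 441 kept direction and side of the threshold. Organ calls were 69 of 100 with all libraries and 33 of 50 with at least 10 counts in every library, which left 5 members in the fit. They were 60 with WT libraries only and 67 to 72 otherwise. The shares called over all genes in these settings are not given, so nothing is read from these counts about the members. Of 530 alternative values of the 100 organ contrasts, 490 kept direction and side of the threshold, 20 lost a call, 12 gained one, and 8 of uncalled contrasts turned sign. The last were, between small intestine and spleen, Acot2 (0.014 with RLE factors and with DESeq2, and 0.43 without replicate 1 of the small intestine) and, without spleen WT replicate 2, Acnat2 (1.17) and Acot3 (2.24). With WT libraries only, Acot4 turned between small intestine and kidney (-0.15) and between spleen and heart (0.62), and without replicate 2 of the small intestine Acot7 turned between small intestine and kidney (-0.40). The 2 fits without a replicate number of the small intestine were chosen after seeing the data. In the pathway lists, 1 gene (Acsm2) was called in the spleen with no filter. Counts of all genes called moved in the liver from 8 to 53 (DESeq2), 122 (no filter), 20 (replicate block), 3 (limma), and 0 (1 fit of all libraries), in the spleen from 42 to 209 (DESeq2), 313 (no filter), 105 (at least 10 counts in every library), 1 (limma), and 0 (1 fit of all libraries, or adjusted p under 0.05), in the heart from 0 to 3 (DESeq2), 13 (no filter), and 6 (replicate block), and in the small intestine from 0 to 51 (DESeq2), and the causes were not tested. With 1 library left out, these counts ran from 2 to 205 in the liver (205 and 193 without WT replicate 1 or 2), from 0 to 371 in the spleen, from 1 to 2938 in the kidney, and from 0 to 22 in the heart, and were 0 in the small intestine. The sample titles give same-numbered libraries no link but the number, although in the small intestine it goes with the proximal and distal markers. In the heart, the column headers of replicate 2 of WT and KO carry the tag pre, which those of replicate 1 lack. These libraries held 36090637 and 41763236 counts, against 17959542 and 15897446 in replicate 1. Deviations of same-numbered libraries correlated at r 0.57 (small intestine), 0.37 (heart), 0.13 (kidney), 0.04 (liver), and 0.0071 (spleen). The replicate block left the number of members called at 1 in the liver and 0 elsewhere. Members with few counts (Acnat2 and Acot3 in the small intestine, Acnat1 and Acot3 in the spleen, and Acnat1, Acnat2, and Acot12 in the heart) were below the depth needed for a genotype test.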
